A study of Saccharomyces cerevisiae with 45 samples.

Results

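The genes described here encode the RNA polymerase I and III machinery of budding yeast (Saccharomyces cerevisiae), chosen as 40 named genes out of 5449 measured. They comprise 23 core subunit genes, 16 initiation factor genes and MAF1. The core subunits among the members are 7 of polymerase I alone, 2 shared by polymerases I and III (RPC40 and RPC19) and 10 of polymerase III alone. Another 4 are shared by all 3 nuclear polymerases, as is RPC10, which is not a member. The initiation factors are 8 of polymerase I and 8 of polymerase III. All 40 symbols were found in the probe annotation, and each gene had the probe set with the highest mean signal. All cells were of the strain labelled BY4147, with the genotype MATa; his3D1; leu2D0; met15D0; ura3D0, grown in YPD, a rich medium. The control groups stayed at 25 °C, with 3 arrays in the batch labelled A863 and 2 in the batch labelled A927. Heated cells were moved to a water bath at 37 °C for 1, 3, 5, 7, 10, 15, 40 or 80 min, with 3 arrays per time. Other cells were heated to 42 °C for 3, 5, 10 or 40 min or to 46 °C for 10 or 30 min, with 2 arrays per time. The labels give no separate age, clone or culture for a replicate, and p-values therefore describe the scatter of arrays within a group, which could be purely technical.

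RNA polymerase I makes the precursor of the large ribosomal RNAs, and RNA polymerase III makes transfer RNAs and the smallest ribosomal RNA. Both enzymes consist of a large catalytic pair of subunits, a stalk, subunits shared with other polymerases, and subunits related to general transcription factors. Polymerase I is brought to the ribosomal DNA by core factor, the upstream activating factor and the bridging factor Rrn3, and polymerase III by TFIIIC and TFIIIB. Maf1 represses polymerase III under stress. In growing yeast most transcription is by these enzymes, and the genes for their subunits belong to the ribosome biogenesis genes, whose messenger RNAs are known to drop when growth slows.

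Values are log2 array intensities, and a change is a log2 difference between group means with its standard error (SE) from a model fitted to 41 arrays. The words rose and fell are kept for an adjusted p under 0.05 in limma together with a log2 difference of at least 1, which is a 2-fold change. Replicate arrays in these groups correlated at 0.991 to 0.999 over all probe sets. The 4 arrays labelled 42 °C 1 and 80 min, from the batch labelled A961, were left out because replicates disagreed, with r of 0.612 at 1 min and 0.620 at 80 min. RPA43 read 11.48 on replicate 1 and 5.24 on replicate 2 at the labelled 1 min, and 5.26 and 11.53 on the replicates at the labelled 80 min. The heat shock gene HSP26 read 6.14 and 15.1, then 15.2 and 6.40, on the same arrays. Elsewhere HSP26 read 6.23 to 6.61 at 25 °C and at least 12.6 on every array heated for more than 3 min. URA3, LEU2 and MET17, which the genotype removes, stayed at 3.88 to 5.93 on all 41 arrays, whereas HIS3 read 10.3 to 12.4. The mating type a marker STE2 read 10.3 to 13.6 and the opposite type's STE3 5.18 to 8.45. Other type a genes, MFA1, MFA2 and BAR1, read at least 9.99, and MF(ALPHA)1 and MF(ALPHA)2 of the opposite type at most 6.99. The remaining markers separated less cleanly. AGA2 of type a read 7.81 to 11.46 and SAG1 of the opposite type 8.37 to 9.53, so their ranges overlapped. At 25 °C AGA2 read 10.14 to 11.46 and SAG1 9.15 to 9.31. Unheated core subunits read slightly higher in batch A927 than in A863, with a median difference of 0.31 against 0.04 for the initiation factors and 0.03 for all genes. In these bulk samples fewer cells with a transcript and less of it per cell cannot be told apart, and the array normalisation removes any overall change in messenger RNA.

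At 37 °C the core subunit messenger RNAs fell step by step to a low at 15 min and came back most of the way by 80 min. After 1 min 0 of the 40 members rose or fell by limma's test, where 0.202% of all genes were lower and 0.0367% higher (1527 genes had an unadjusted p under 0.05). At 3 min 1 member fell, RRN11, where 1.32% of all genes were lower. By 5 min 12 members had fallen, against 5.95% of all genes, and by 7 min 14, against 8.15%. At 10 min 26 members were lower against 11.9% of all genes, and at 15 min 27 against 14.3%. The median change of the 40 members was −0.52 at 5 min, −1.30 at 10 min and −1.66 at 15 min, while the median of all genes stayed at −0.02, 0.02 and 0.06. At 40 min 9 members were lower against 7.21% of all genes. At 80 min 1 member, RRN3, was still lower, where 2.31% of all genes were. With the 4 arrays left out above in the fit as well, 7 members passed at 5 min, without RPA43, RPA49, RPA34, RPA12 and RPC53, and 2 at 40 min, without RPA43 and RPA190 among others. No member rose at any time at 37 °C, where the share of all genes that were higher was 1.93% at 3 min, 5.60% at 5 min, 7.87% at 7 min, 12.0% at 10 min, 15.3% at 15 min, 7.08% at 40 min and 5.65% at 80 min.

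**Figure D1:**
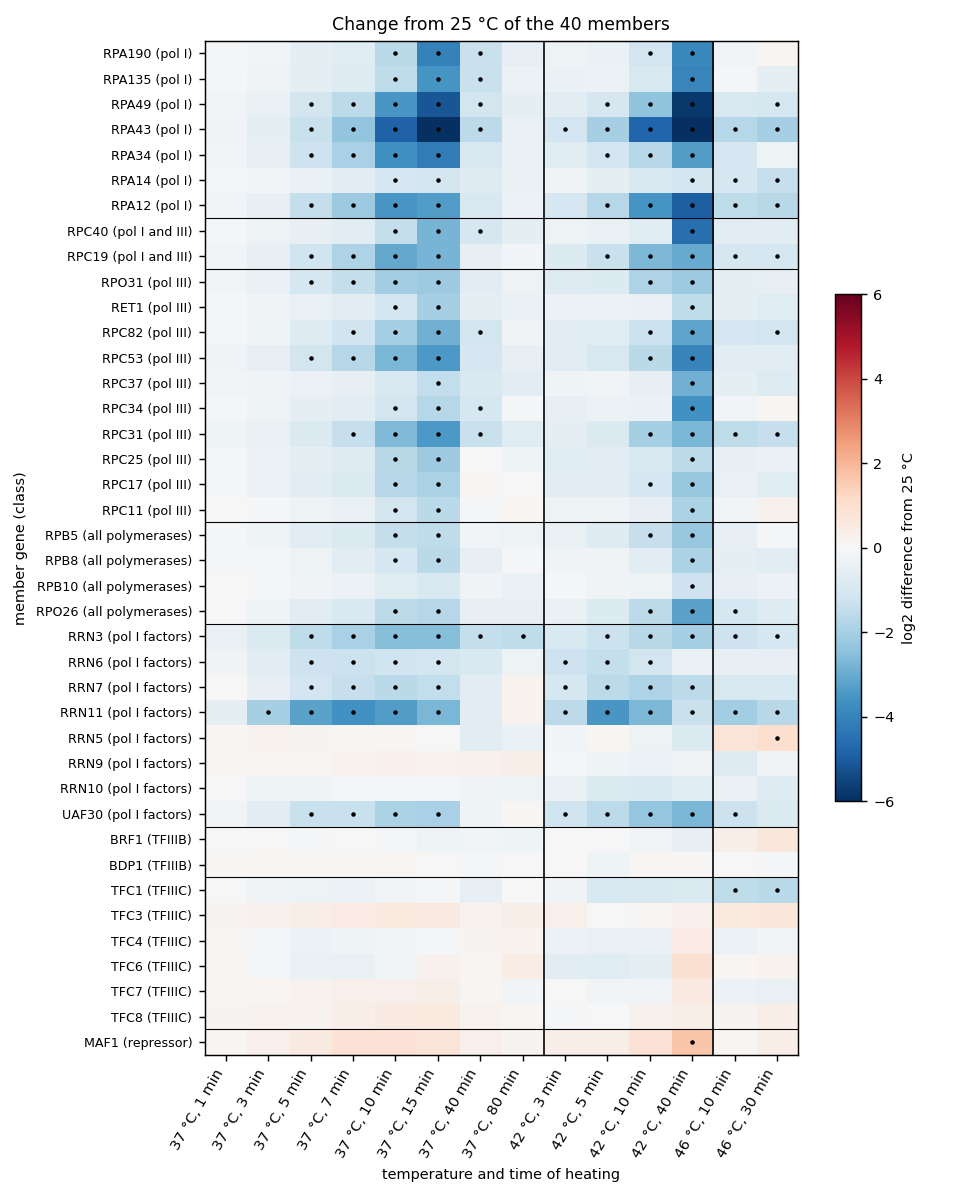
Log2 difference from 25 °C (colour) of each of the 40 members (rows, by class) at each temperature and time (columns); a dot marks a change that passed the test. At 37 °C the blue of the core subunits is deepest at 15 min, where 22 of 23 fell, at 42 °C it is deepest at 40 min, where 23 of 23 fell, and the rows of the polymerase III factors carry a dot only for TFC1 at 46 °C.

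Among the 7 subunits of polymerase I alone, all were lower at 10 and 15 min. At 10 min RPA14 stood at −0.98 without replicate 2 of that time, and RPA190 and RPA135 did not pass with all 45 arrays in the fit. RPA43, a stalk subunit and the contact point of Rrn3, read 11.38 on each of the 3 control arrays. It read 10.05, 10.05 and 9.97 at 5 min, 6.57, 6.45 and 6.55 at 10 min, and 5.29, 5.48 and 5.37 at 15 min. The groups did not overlap at any of these times. RPA43 fell by 6.0 ± 0.06 at 15 min (limma adjusted p = 2.9e-35). Its mean at 15 min lay under the level of probe sets without a target on these arrays, 5.44, so the fall may be understated. No other member had a group mean under the corresponding level of its arrays.

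RPA190, the largest subunit with part of the catalytic centre, read 12.99, 12.98 and 13.06 in the control and 12.16, 12.68 and 12.57 at 5 min. At 15 min its 3 arrays read 9.35, 8.34 and 9.18, all below every earlier array. Its change was −1.63 ± 0.14 at 10 min and −4.05 ± 0.14 at 15 min. In the reference annotation (R64) RPA190 and RPA43 are neighbours, the only pair of neighbours among the members, yet their changes at 10 min were −1.63 and −4.86. RPA135, the second largest subunit, changed with a course like that of RPA190, by −1.52 ± 0.11 at 10 min and −3.54 ± 0.11 at 15 min.

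RPA49 and RPA34 form a dimer that is related to a factor of polymerase II. RPA49 read 12.23, 12.25 and 12.20 in the control, 8.70, 8.79 and 8.72 at 10 min, and 7.13, 7.11 and 7.00 at 15 min. RPA34 read 12.89, 12.90 and 12.91, then 9.18, 9.30 and 9.17, then 8.62, 8.75 and 8.79 in the same groups. The 15 min arrays were the lowest for both genes, with changes of −5.15 ± 0.10 for RPA49 and −4.18 ± 0.07 for RPA34. RPA12, a subunit that takes part in RNA cleavage, had its low already at 10 min, at −3.49 ± 0.10, and stood at −3.34 ± 0.10 at 15 min. RPA14, the other stalk subunit, changed least in this class. Its controls read 12.01, 12.03 and 12.00 and its 15 min arrays 10.85, 11.01 and 10.84, without overlap. That change of −1.12 ± 0.05 was just past the 2-fold limit.

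The pair of subunits shared by polymerases I and III, which form the scaffold on which the enzyme is assembled, differed in timing. RPC19 read 12.40, 12.33 and 12.37 in the control, 11.24, 11.17 and 11.11 at 5 min, and 9.54, 9.65 and 9.55 at 15 min. RPC40 read 12.96, 12.95 and 12.93, then 12.43, 12.45 and 12.47, then 10.22, 10.04 and 10.22. Both were lower on every heated array named here than on any control. At 5 min the change of RPC19, −1.19 ± 0.08, passed the test and the change of RPC40, −0.50 ± 0.07, was under the 2-fold limit. RPC19 had its low at 10 min, at −3.06, when RPC40 stood at −1.43. At 15 min both stood at −2.79.

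Of the 10 subunits of polymerase III alone, 2 had fallen at 5 min, 4 at 7 min, 9 at 10 min and 10 at 15 min. The 2 at 5 min were RPC53 and RPO31; RPO31 stood at −0.89 without replicate 1 of that time, which left 1, and RPC53 did not pass with all 45 arrays in the fit. Their median change was −2.08 at 15 min, against −4.05 for the 7 subunits of polymerase I. RPC53, which with RPC37 forms a dimer that acts in termination, read 10.40, 10.23 and 10.28 in the control and 6.91, 6.95 and 6.77 at 15 min. RPC37 read 10.82, 10.81 and 10.82 in the control and 9.35 on each array at 15 min. Both sets of values were free of overlap, but within this dimer RPC53 fell by 3.43 ± 0.07 and RPC37 by 1.46 ± 0.06.

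RPC82, RPC34 and RPC31 form a trimer needed for initiation. RPC31 read 11.62, 11.61 and 11.55 in the control and 8.06, 8.25 and 8.19 at 15 min, a change of −3.42 ± 0.07. RPC82 fell by 2.90 ± 0.07 and RPC34 by 1.70 ± 0.06. RPO31 and RET1, the 2 largest subunits of polymerase III, fell by 2.17 ± 0.08 and 1.99 ± 0.05. The stalk subunits RPC25 and RPC17 fell by 2.19 ± 0.09 and 1.88 ± 0.10, and the cleavage subunit RPC11 by 1.62 ± 0.07. Within polymerase III the changes at 15 min thus ran from −1.46 for RPC37 to −3.43 for RPC53.

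The 4 members shared by all 3 polymerases changed less, with a median of −1.57 at 15 min. RPB5, RPB8 and RPO26 fell by 1.53 ± 0.06, 1.60 ± 0.07 and 1.70 ± 0.07. RPB10, a small zinc-binding subunit, read 12.53, 12.59 and 12.52 in the control and 11.50, 11.76 and 11.62 at 15 min. Its groups did not overlap, but its change of −0.92 ± 0.07 was under the 2-fold limit, which made it the 1 core subunit that did not pass the test at 15 min.

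Subunits of polymerase II alone, taken for comparison, did not pass the test at any time at 37 °C (0 of 7, where 11.9% of all genes were lower at 10 min and 14.3% at 15 min), so that this count was near the share over all genes. Their median change was −0.46 at 10 min and −0.35 at 15 min. Homologous subunits could be set side by side. At 15 min the largest subunits changed by −4.05 ± 0.14 in polymerase I (RPA190), −2.17 ± 0.08 in polymerase III (RPO31) and −0.36 ± 0.08 in polymerase II (RPO21). The second largest changed by −3.54 ± 0.11 (RPA135), −1.99 ± 0.05 (RET1) and −0.29 ± 0.05 (RPB2). For the larger stalk subunits the changes were −6.0 ± 0.06 (RPA43), −2.19 ± 0.09 (RPC25) and −0.04 ± 0.06 (RPB7). The smaller stalk subunits departed from this order, with −1.12 ± 0.05 for RPA14, −1.88 ± 0.10 for RPC17 and 0.42 ± 0.07 for RPB4. The cleavage subunits changed by −3.34 ± 0.10 (RPA12), −1.62 ± 0.07 (RPC11) and −0.53 ± 0.10 (RPB9). The differences between genes were not tested, since probe sets respond on scales of their own.

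The polymerase I initiation factors divided into 5 genes that fell early and 3 that did not pass the test at any time at 37 °C. RRN11, RRN6 and RRN7 encode core factor, RRN3 the bridging factor, and UAF30 a subunit of the upstream activating factor. RRN11 read 10.76, 10.62 and 10.44 in the control, and already 8.70, 8.55 and 8.63 at 3 min, with no overlap. It went on to 7.65, 7.15 and 7.32 at 5 min and 6.59, 7.24 and 7.08 at 7 min, its lowest group. RRN11 had thus changed by −1.98 ± 0.14 at 3 min (limma adjusted p = 5.1e-13), −3.23 ± 0.14 at 5 min and −3.63 ± 0.14 at 7 min. At 15 min it read 7.72, 8.07 and 7.77, a change of −2.75 ± 0.14.

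RRN6 read 10.23, 10.16 and 10.11 in the control, 8.79, 8.97 and 8.97 at 5 min, and 9.07, 9.05 and 9.05 at 15 min. RRN7 read 9.17, 9.15 and 9.12, then 7.96, 8.0 and 8.0, then 7.68, 7.77 and 7.55. At 5 and 15 min every array of both genes lay below every control. RRN6 fell by 1.26 ± 0.06 at 5 min and stood at −1.11 ± 0.06 at 15 min, and RRN7 fell by 1.16 ± 0.07 and stood at −1.48 ± 0.07. UAF30 fell by 1.31 ± 0.13 at 5 min and 1.93 ± 0.13 at 15 min. RRN3 read 11.15, 10.99 and 10.77 in the control, 9.36, 9.48 and 9.49 at 5 min, and 8.47, 8.53 and 8.32 at 15 min, falling by 1.53 ± 0.08 and 2.53 ± 0.08. RRN3 was the only factor to pass the direct test of 15 against 5 min given further on.

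The other 3 genes counted here for the upstream activating factor gave small differences at 15 min. RRN9 read 10.22, 10.23 and 10.31 in the control and 10.44, 10.47 and 10.52 at 15 min, a difference of 0.23 ± 0.07. RRN5 read 8.02, 8.13 and 8.15 in the control and 8.15, 7.98 and 8.09 at 15 min, so that these groups overlapped. The differences of RRN5 and RRN10 at 15 min were −0.03 ± 0.07 and −0.08 ± 0.08. RRN5 read lower at 40 min, at −0.62 ± 0.07, under the 2-fold limit. UAF30 and these 3 genes encode parts of 1 complex, and their changes at 15 min ran from −1.93 to 0.23.

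None of the 8 polymerase III initiation factors passed the test at any time at 37 °C, where at most 14.3% of all genes were lower and 15.3% higher. TFC3, the largest subunit of TFIIIC and part of its contact with the internal promoter, read 10.27, 10.26 and 10.33 in the control and 10.81, 10.80 and 10.84 at 15 min. These groups did not overlap, with a difference of 0.53 ± 0.05, under the 2-fold limit. BDP1, a subunit of TFIIIB, read 9.90, 9.86 and 9.87 in the control and 9.97, 9.83 and 9.89 at 15 min, and its groups overlapped. BRF1, the other TFIIIB subunit counted here, differed by −0.28 ± 0.06 and the remaining TFIIIC genes by −0.11 (TFC1) to 0.58 (TFC8). MAF1 read 9.83, 9.84 and 9.84 in the control, 10.62, 10.72 and 10.80 at 10 min, and 10.58, 10.63 and 10.67 at 15 min. It was higher on every one of these heated arrays, but its differences of 0.87 ± 0.06 and 0.79 ± 0.06 were under the 2-fold limit.

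**Figure D2:**
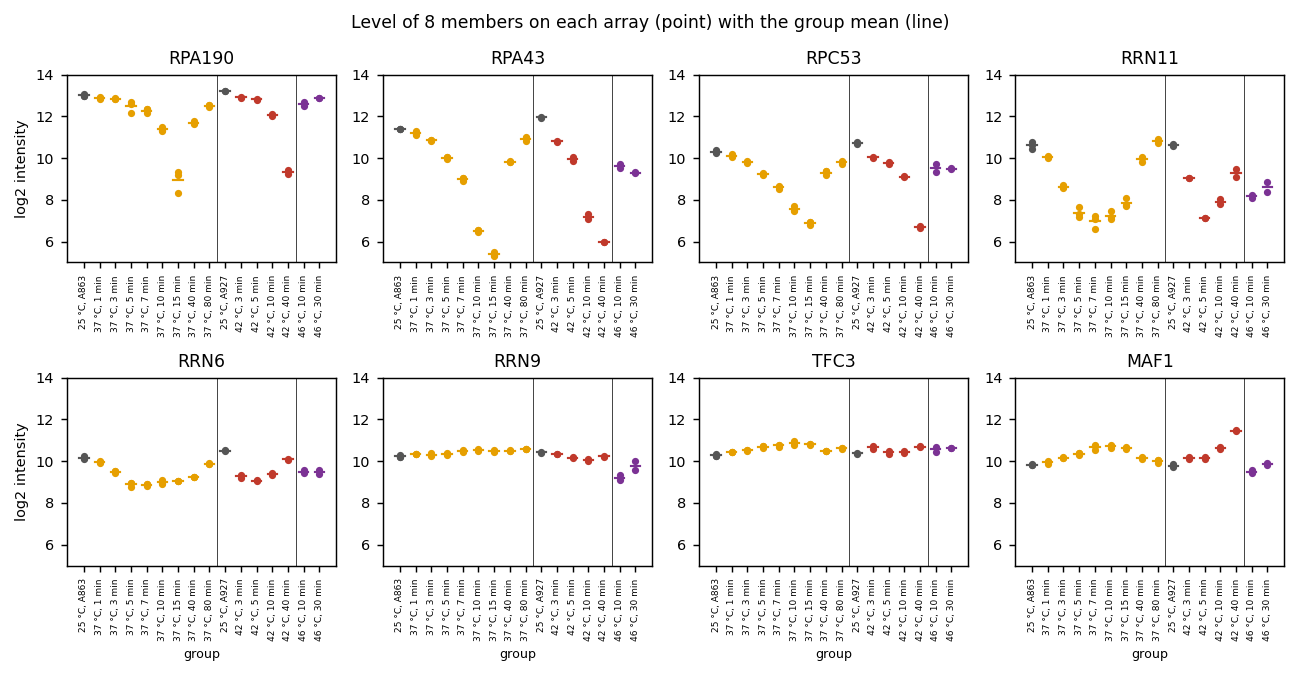
Log2 intensity of 8 members on each of the 41 arrays (points) with the group mean (short line), grouped by temperature and time, with grey for 25 °C (batches A863 and A927), orange for 37 °C, red for 42 °C and purple for 46 °C. RPA43 drops to 5.29 to 5.48 at 37 °C 15 min, RRN11 is lowest at 7 min, at 6.59 to 7.24, and MAF1 is highest at 42 °C 40 min, at 11.43 and 11.49.

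The direct comparison of 15 with 5 min at 37 °C, added after the values had been seen, showed which members fell further. Between these times 21 members fell further, against 9.38% of all genes lower, and 0 rose, against 6.55% higher. These were 20 of the 23 core subunits and RRN3. They included RRN3 and the 7 core subunits that had already fallen at 5 min. RPC37, RPC34 and RPO26 did not pass with all 45 arrays in the fit. The further change was −4.64 ± 0.06 for RPA43, −4.05 ± 0.10 for RPA49 and −3.51 ± 0.14 for RPA190. The core subunits that did not pass this test were RPA14 at −0.71 ± 0.05, RPB5 at −0.91 ± 0.06 and RPB10 at −0.70 ± 0.07. RRN11, RRN6, RRN7 and UAF30 differed by 0.48 ± 0.14, 0.14 ± 0.06, −0.32 ± 0.07 and −0.62 ± 0.13 between the same times. RRN3 was at the limit, at −1.0 ± 0.08, and at −0.92 it did not pass after quantile normalisation over all arrays. Without replicate 2 or 3 of 5 min it stood at −0.99 or −0.98, and without replicate 3 of 15 min at −0.95.

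From 15 to 40 min at 37 °C 22 members rose again, against 9.12% of all genes higher, and 0 fell, against 6.96% lower. They were 19 core subunits with RRN3, RRN11 and UAF30. RPA43 read 9.79, 9.84 and 9.83 at 40 min, which was 4.44 ± 0.06 above its 15 min level and still 1.56 ± 0.06 below the control. RPA190 read 11.62, 11.69 and 11.76, and RRN11 10.01, 9.83 and 10.07. At 40 min all 3 genes were above every 15 min array and below every control array, although the remaining difference of RRN11, −0.64 ± 0.14, did not pass the test. RPC37 and RPC34 came back least among the polymerase III subunits, by 0.55 ± 0.06 and 0.65 ± 0.06, which did not pass. RPC25 and RPC17 stood at −0.04 ± 0.09 and 0.06 ± 0.10 at 40 min, overlapping the control.

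At 80 min the core subunits had a median of −0.40 and 0 of 23 passed the test. RRN3 read 9.51, 9.54 and 9.28, below all 3 control arrays, and its change of −1.53 ± 0.08 was as large as at 5 min. The 80 min arrays carry the batch label A705, which has no control, so batch and time cannot be told apart. The 3′ minus 5′ signal of ACT1, a measure of RNA length, was 0.92 ± 0.08 (SD, n = 3) there and 0.52 ± 0.01 in the A863 control; its part in these values was not tested.

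Taken as classes, core subunits and initiation factors moved apart at 37 °C and then approached each other again. The median change of the 23 core subunits was −0.61 at 5 min, −1.63 at 10 min, −2.19 at 15 min and −0.91 at 40 min. That of the 16 initiation factors was −0.27, −0.12, −0.09 and −0.19. The core median minus the factor median was −1.51 at 10 min, −2.10 at 15 min and −0.72 at 40 min. On single arrays this difference ran from −1.62 to −1.45 at 10 min and from −2.31 to −1.98 at 15 min, so the 2 times did not overlap. The factor median hides a split, since the polymerase I factors had a median of −1.30 at 15 min and the polymerase III factors 0.13.

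**Figure D3:**
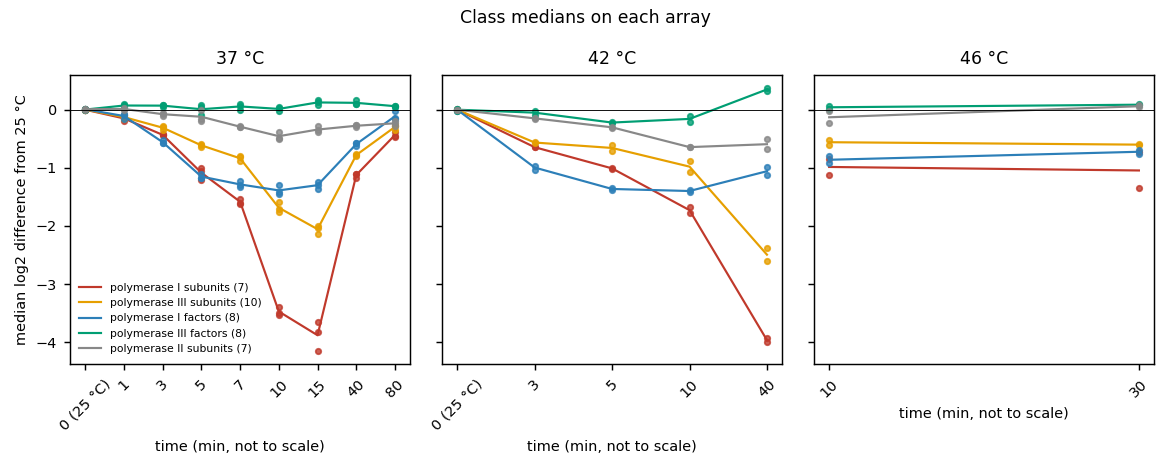
Median log2 difference from 25 °C over the genes of 5 classes on each array (points) and its mean per time (lines) at 37, 42 and 46 °C, with times in order but not to scale. At 37 °C the polymerase I factors (blue) have lower means than the polymerase I subunits (red) at 3 and 5 min, although 1 array at 5 min has the reverse order, and higher ones from 7 min on, and the polymerase III factors (green) stay between −0.10 and 0.16.

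At 42 °C core subunits and polymerase I factors fell as well, and the core subunits as a class were lowest at the last time measured, 40 min. By limma's test 5 members were lower at 3 min (3.82% of all genes), 10 at 5 min (6.83%), 18 at 10 min (12.5%) and 27 at 40 min (22.4%). Of all genes 5.21%, 8.48%, 13.1% and 23.3% were higher at these times, and the 1 member that rose was MAF1, at 40 min. Of the 5 at 3 min, 4 were initiation factors, RRN11, RRN6, RRN7 and UAF30, and the fifth was RPA43. Against the control of the other batch RPA43, RRN6 and RRN7 stood at −0.59, −0.89 and −0.75 at 3 min and did not pass. With all 45 arrays in the fit 3 members passed at 3 min and 5 at 5 min, and RPA190, RPA49, RPA34, RPC82 and RPC53 did not pass at 10 min. Against the control of the other batch RPA190, RPC82, RPC17 and RRN6 stood at −0.94, −0.86, −0.95 and −0.79 at 10 min. After quantile normalisation over all arrays RPC17 and RRN6 stood at −0.90 and −0.98 at that time. All 23 core subunits were lower at 40 min, with a median of −3.00. Against the control of the other batch RPA14 and RPB10 stood at −0.76 and −0.98 and did not pass, which left 21.

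RRN11 read 10.66 and 10.58 in the A927 control, 9.05 and 9.03 at 3 min, 7.13 and 7.13 at 5 min, 7.79 and 8.03 at 10 min, and 9.09 and 9.48 at 40 min. All heated arrays lay below the control, and the 5 min arrays were the lowest, with a change of −3.50 ± 0.17. From 10 to 40 min RRN11 rose by 1.37 ± 0.17. RRN6 had fallen by 1.42 ± 0.07 at 5 min and stood at −0.41 ± 0.07 at 40 min. RRN3, RRN7 and UAF30 were still lower at 40 min, at −1.98 ± 0.10, −1.56 ± 0.09 and −2.73 ± 0.16. UAF30 read 5.73 and 5.86 there, close to the 5.63 of probe sets without a target, so its fall may be understated.

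From 10 to 40 min at 42 °C 16 members fell further, against 13.0% of all genes lower, and 2 rose, RRN11 and TFC6, against 10.6% higher. The median of all genes was itself 0.15 in this comparison. All 16 were core subunits. Of these, RPA43, RPA34, RPA12 and RPC82 did not pass with all 45 arrays in the fit. RPC40 read 13.23 and 13.26 in the control, 12.42 and 12.58 at 10 min and 8.56 and 8.92 at 40 min. RPC34 read 11.28 and 11.31, then 10.89 and 10.91, then 7.58 and 7.76. Most of the change of both genes came late, with −0.74 ± 0.08 and −0.40 ± 0.08 at 10 min against −4.50 ± 0.08 and −3.63 ± 0.08 at 40 min. RPC19 had its fall earlier, at −2.69 ± 0.10 and −3.00 ± 0.10. RPA43 read 7.07 and 7.32 at 10 min and 6.0 and 5.97 at 40 min, from 11.97 and 11.93 in the control.

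Of the polymerase III factors 0 of 8 fell at 42 °C, where 3.82% to 22.4% of all genes were lower, so a count this small says little about the class. TFC6, which binds the distal part of the internal promoter as a subunit of TFIIIC, read 9.66 and 9.70 in the control, 9.13 and 9.07 at 10 min and 10.54 and 10.62 at 40 min. It rose by 1.48 ± 0.06 from 10 to 40 min, while its difference from the control, 0.90 ± 0.06, was under the 2-fold limit. TFC1 was lowest of this class, at −0.94 ± 0.08 at 10 min. MAF1 read 9.85 and 9.70 in the control and 11.49 and 11.43 at 40 min, without overlap, and rose by 1.68 ± 0.07 (limma adjusted p = 1.2e-20). At 40 min the ACT1 3′ minus 5′ signal was 1.33 ± 0.07 (SD, n = 2) against 0.75 ± 0.09 in the control, and its part in the 40 min values was not tested. Of the polymerase II subunits 1 fell at 10 min (RPO21, by 1.12 ± 0.10) and 1 at 40 min (RPB9, by 1.24 ± 0.12), out of 7, against 12.5% and 22.4% of all genes lower.

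The response at 42 °C minus that at 37 °C was tested at matched times. The 37 °C arrays of these times and their control carry the batch label A863, and those at 42 °C the label A927. Each change was taken from the control of its own batch, but batch and temperature cannot be told apart in this difference. At 3 min 0 members differed by limma's test (0.257% of all genes lower and 2.40% higher; 1982 genes at an unadjusted p under 0.05), and at 5 min 0 (0.440% and 2.92%; 2229 genes). At 10 min 3 core subunits had fallen less at 42 °C, against 8.96% of all genes higher, and 0 had fallen more, against 4.97% lower. RPA34 read 11.54 and 11.65 at 42 °C, from 13.29 and 13.35, and its 2 changes differed by 1.96 ± 0.12. RPA49 and RPC53 differed by 1.08 ± 0.16 and 1.13 ± 0.12. RPA43 and RPA12 differed by 0.11 ± 0.10 and −0.05 ± 0.16 at this time. Whether these core subunits differed from each other was not tested. The count of 3 among 40 members was no larger a share than that of all genes. With the 4 arrays labelled 42 °C 1 and 80 min in the fit, 0 members passed at 10 min.

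At 40 min 22 members were lower at 42 °C than at 37 °C relative to their controls, against 19.6% of all genes, and 1 was higher, MAF1, against 19.7%. The 22 were 21 core subunits and UAF30. Batch and temperature cannot be told apart here either. With all 45 arrays in the fit RPA190 and RPC82 did not pass, and without replicate 3 of 37 °C 40 min RPB10 stood at −0.99. The core median of this difference was −2.31 and the factor median −0.28. RPA49 differed most, by −4.66 ± 0.16, followed by RPA43 at −4.40 ± 0.10, RPA12 at −3.95 ± 0.16 and RPC40 at −3.49 ± 0.10. RPA14 and RET1 were the core subunits that did not pass, at −0.35 ± 0.08 and −0.92 ± 0.09. RRN3 and RRN11 differed by −0.53 ± 0.13 and −0.70 ± 0.22, also under the limit. Between 15 and 40 min 19 of the 23 core subunits had risen again at 37 °C, as given above. At their lowest sampled times, 15 min at 37 °C and 40 min at 42 °C, RPA43 changed by −6.0 ± 0.06 and −5.96 ± 0.08, where the first value is limited by the floor and may understate the fall, so that the 2 cannot be compared. RPC40 changed by −2.79 ± 0.07 and −4.50 ± 0.08.

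**Figure D4:**
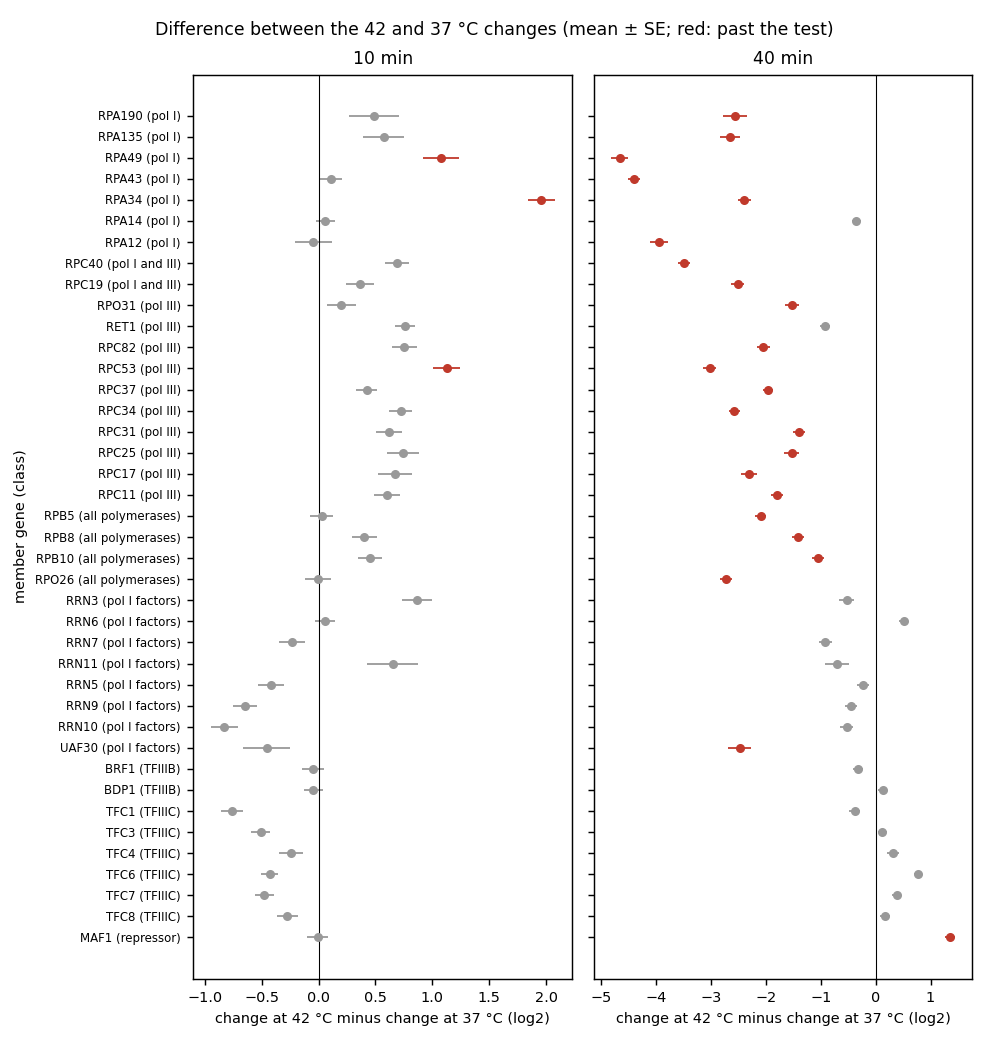
Change at 42 °C minus change at 37 °C (log2, point ± SE) for each of the 40 members at 10 and 40 min, in red where it passed the test. At 10 min the 3 red points lie to the right (RPA34, RPA49 and RPC53), and at 40 min 22 lie to the left, down to −4.66 for RPA49, and MAF1 lies to the right at 1.36.

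At 46 °C 6 of the 23 core subunits were lower at 10 min and 7 at 30 min, and TFC1, a polymerase III factor, was lower at both times. The arrays at 46 °C carry the batch label P230, have no control of their own and a lower signal throughout, so they were compared with the mean of both controls after subtracting the median of each array. Batch and temperature cannot be told apart here. By limma's test 10 members were lower and 0 higher at 10 min, against 8.77% and 11.0% of all genes. At 30 min 10 were lower and 1, RRN5, was higher, against 11.2% and 12.4%. Several of these calls depended on a single array. Without replicate 1 of 46 °C 10 min RPC19 and RPO26 stood at −0.92 and −0.91, and without replicate 2 RPA14 stood at −0.95. Without replicate 1 of 30 min RPA49, RPC19 and RRN3 stood at −0.74, −0.88 and −0.98, and without replicate 2 RPC82 stood at −0.95. The core median was −0.60 at 10 min and −0.68 at 30 min, and the factor median −0.39 and −0.33.

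Relative to the array median RPA43 read 1.11, 1.12 and 1.11 in the A863 control and 1.72 and 1.69 in the A927 control. It read −0.40 and −0.22 at 10 min and −0.61 and −0.60 at 30 min, below all controls, and fell by 1.72 ± 0.07 and 2.01 ± 0.07. With all 45 arrays in the fit these falls did not pass, and 6 and 7 members did at the 2 times. RPA12 was also lost at both times, RPC19 and RPO26 at 10 min, and RPA49 and RPC82 at 30 min. RPA190 read 2.60 and 2.78 at 10 min and 2.97 and 2.97 at 30 min, within the range of the controls at 30 min (2.71 to 2.98). RRN11 fell by 2.09 ± 0.14 at 10 min and 1.64 ± 0.14 at 30 min.

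The polymerase III factor TFC1 read 0.22, 0.17 and 0.18 and 0.21 and 0.12 in the controls, −1.32 and −1.40 at 10 min, and −1.38 and −1.53 at 30 min, relative to the array median. All arrays at 46 °C lay below the controls, with changes of −1.54 ± 0.06 and −1.63 ± 0.06, the only falls of a polymerase III factor in the comparisons with 25 °C. RRN5 read −2.25 to −1.77 in the controls and −0.96 and −0.99 at 30 min, higher without overlap. Its rise of 1.01 ± 0.07 was at the limit, and on the deposited scale, on which the median of all genes was −0.38, the difference was 0.66. Between 10 and 30 min 0 members passed limma's test, where 0.239% of all genes were lower and 0% higher (2874 genes at an unadjusted p under 0.05).

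Another 10 genes of polymerase I and III transcription, which are not members, were counted at the 37 °C low. At 15 min 3 of the 10 fell and 1 rose, against 14.3% of all genes lower and 15.3% higher. RPC10, a subunit shared by all 3 polymerases, fell by 1.59 ± 0.08. FOB1, which blocks replication forks in the ribosomal DNA, fell by 1.47 ± 0.10, and NET1, which binds polymerase I in the nucleolus, by 1.02 ± 0.10. NHP6B, a DNA-bending protein with a role at polymerase III genes, rose by 1.33 ± 0.07, while its close relative NHP6A differed by −0.47 ± 0.05. SPT15, the TATA-binding protein used by all 3 polymerases, differed by −0.75 ± 0.04, and HMO1, a ribosomal DNA binding protein, by −0.06 ± 0.07. At 42 °C 40 min RPC10 and FOB1 fell by 2.34 ± 0.10 and 1.59 ± 0.12 and NHP6B rose by 1.68 ± 0.08.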

How the data were processed

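RNA from 45 samples was hybridised to 3′ expression arrays from 150 ng of total RNA, per the labels' protocols. The authors deposited log2 intensities, 1 per probe set and array, made with RMA in affy, per the submitters' processing notes, with tool versions and build not given in the sources used here. This method aligns arrays to each other, and compresses changes near background. Array medians were 9.85 to 9.86 in batch P230, 10.20 to 10.26 in A863 and A705, and 10.12 to 10.20 in A927 and A961, so that they set P230 apart. Unspecific signal was taken in these 3 sets.

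Of 5900 probe sets 5498 had 1 gene symbol and 0 several; all 5498 matched the R64 annotation, which updated 12 symbols. The brightest probe set stood for each of 47 genes with several, leaving 5449 genes. Between arrays, 0 pairs held identical values. The floor for unspecific signal, the 95th percentile of 29 probe sets without a known target in this strain, was 5.44, 5.63 and 4.59 in the 3 sets. Group means were fitted to 41 arrays by lmFit and eBayes of limma 3.58.1 (R 4.3.3), unpaired, which left 25 residual degrees of freedom. Two-sided p-values were adjusted by Benjamini and Hochberg's method across the 5449 genes of a comparison. Each time was set against the control of its own batch, and 37 °C 80 min against that of A863. The procedure was tested on simulated data.

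The members and lists were chosen with earlier results of these data known, so all 40 members could be named, with lists of 10 other genes and 7 polymerase II subunits. Alternatives covered the arrays in the fit, array scaling, quantile normalisation, a floor filter, the intensity trend, probe set means, the control, no minimum change, the replicate number as a block, and each array left out. Replicate numbers were taken as names only, since the correlation of same-numbered deviations averaged 0.03 in A863 and 0.01 in A927. Promoter and protein sequences were not analysed here.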

Additional observations from a re-analysis of the deposited data

Results flagged for a closer look

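The difference between the responses at 42 and 37 °C passed limma's test for several members, and is given here on the log2 scale, negative where the level at 42 °C dropped further. At 10 min it was 1.08 for RPA49, 1.96 for RPA34 and 1.13 for RPC53. At 40 min it was −2.56 for RPA190, −2.65 for RPA135, −4.66 for RPA49, −4.40 for RPA43, −2.39 for RPA34 and −3.95 for RPA12 among the polymerase I subunits. The subunits shared by polymerases I and III stood at −3.49 (RPC40) and −2.52 (RPC19). Among the polymerase III subunits it was −1.52 for RPO31, −2.04 for RPC82, −3.02 for RPC53, −1.96 for RPC37 and −2.57 for RPC34. It was −1.39 for RPC31, −1.53 for RPC25, −2.31 for RPC17 and −1.79 for RPC11. The members shared by all 3 polymerases stood at −2.09 (RPB5), −1.42 (RPB8), −1.05 (RPB10) and −2.73 (RPO26). UAF30 stood at −2.48 and MAF1 at 1.36. With all 45 arrays in the fit 0 members passed at 10 min, and RPA190 and RPC82 did not pass at 40 min. Each temperature has its own batch label at these times, so batch and temperature cannot be told apart.

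A control probe set for 5.8S ribosomal RNA, outside the gene table, read above its control at 37 °C. Its mean log2 intensity was 13.21 ± 0.05 at 10 min and 13.16 ± 0.40 at 15 min (SD, n = 3 each), against 11.97 ± 0.04 at 25 °C. At 42 °C it read 12.45 ± 0.03 at 3 min and 12.27 ± 0.15 at 5 min, against 11.97 ± 0.08 in the A927 control (SD, n = 2 each). Later at 42 °C it read 11.90 ± 0.05 at 10 min and 11.23 ± 0.20 at 40 min (SD, n = 2 each). At 46 °C it read 13.51 ± 0.04 at 10 min and 13.89 ± 0.11 at 30 min on the deposited scale, in a batch without a control. Polymerase I makes this RNA, but the labelling starts from poly-A tails, so the value is no measure of the amount of ribosomal RNA.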

How the results depend on the processing

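No result reversed under any of the alternatives run. With all 45 arrays in the fit the spread is larger by construction, and fewer members passed: 7 at 37 °C 5 min, 2 at 40 min, 3 and 5 at 42 °C 3 and 5 min, 6 and 7 at 46 °C 10 and 30 min, and 0 for the temperature difference at 10 min. On the deposited scale 16 and 20 members passed at 46 °C, all lower. The median of all genes was itself −0.39 at 10 min and −0.38 at 30 min on that scale, so these 2 counts say little about the members. With no minimum change 6, 29, 36, 36, 35 and 30 members passed at 37 °C 1, 3, 5, 7, 40 and 80 min, 31, 36 and 37 at 42 °C 3, 5 and 10 min, and 35 and 36 at 46 °C. The same setting gave 11, 9, 27 and 36 for the temperature difference at 3, 5, 10 and 40 min. It gave 36 for 37 °C 40 against 15 min, 35 for 42 °C 40 against 10 min, 17 between the 46 °C times and 36 for 37 °C 15 against 5 min. Many of the 5449 genes changed by so loose a measure. By limma's test an unadjusted p under 0.05 was reached by 1527 genes at 37 °C 1 min, 3685 at 5 min and 4647 at 46 °C 30 min. Counts with no minimum change therefore say little about the members in particular. With the control of the other batch 2, 16 and 4 members passed at 37 °C 3, 40 and 80 min and 2 at 42 °C 3 min. Counts with all 45 arrays or the other control are given without the share of all genes. They show only how the calls of members shift. Core minus factor medians were then −1.72, −2.46 and −1.13 at 37 °C 10, 15 and 40 min and −2.41 at 42 °C 40 min. Leaving out single arrays, this median ran from −0.70 to −0.55 at 42 °C 10 min and from −2.60 to −2.43 at 40 min, and counts of members stayed within 1.5 times. With the replicate number as a block 11 members passed at 46 °C 10 min in place of 10, and no count of members moved by over 1.5 times; in batch P230, with only 2 groups, same-numbered arrays deviated together (r = 0.58). Calls of single members were lost in 76 of 2226 recomputed values, 51 of them with all 45 arrays and 12 with the other control, and in 25 of 1509 with an array left out. Apart from the causes that follow from their construction, the cause of these shifts was not tested. Among the members RPA43 alone had a group mean under the floor, at 37 °C 15 min. At 42 °C 40 min UAF30, at 5.73 and 5.86, and RPA43, at 6.0 and 5.97, were close to the floor of 5.63. Their changes there may be understated as well.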
